A study of Homo sapiens with 24 samples.

Results

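ETV1, ETV4, ETV5 and ETV6 are 4 genes of the ETS family of transcription factors, and they were followed here in 2 human acute myeloid leukaemia (AML) cell lines treated with a RAS inhibitor. They were taken by gene symbol, and all 4 were among the 13033 genes measured. Molm-14 is labelled as carrying FLT3-ITD, an internal tandem duplication that makes the FLT3 receptor kinase signal without its ligand. OCI-AML3 (written OCIAML-3 in the labels) is labelled NRAS Q61L, an activating mutation of RAS itself. Each line was given DMSO, the solvent, or RMC-7977, an inhibitor of GTP-loaded RAS, at 25 nM for 2 or 24 h. The 6 groups hold 4 libraries each by the labels. OCI-AML3 at 24 h had n = 3, because no values for its replicate 3 were available here. The DMSO group of a line carries no time in the labels and served as the control for both times, so the 2 h and 24 h comparisons share those libraries. All libraries have the same batch label. Each genotype is represented by a single established line, so genotype and every other difference between the lines cannot be told apart.

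ETV1, ETV4 and ETV5 form the PEA3 group, a set of closely related transcriptional activators. Their genes are kept silent by the repressor Capicua (CIC), and phosphorylation by ERK, the last kinase of the RAS pathway, relieves that repression; their transcripts are therefore widely read as a measure of RAS-ERK output. ETV6, also called TEL, shares the ETS DNA-binding domain but is a repressor with a pointed domain, works with co-repressors such as NCOR1 and SIN3A, is needed by blood stem cells, and is broken by translocations in leukaemia. ETV6 was therefore set beside the PEA3 genes as a family member of another kind.

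The matching 90 bases of the coding sequence of each gene are shown, and they lie in the part of the ETS domain that contacts DNA. They were picked as the stretch of this length where the ETV5 protein was most like the other members. Their likeness is therefore not that of the whole coding sequence. Capitals mark bases unlike ETV5. The sequences are from GENCODE 29 transcripts on GRCh38.
ETV1: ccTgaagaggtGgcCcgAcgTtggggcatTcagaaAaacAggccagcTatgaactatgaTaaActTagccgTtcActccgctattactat
ETV4: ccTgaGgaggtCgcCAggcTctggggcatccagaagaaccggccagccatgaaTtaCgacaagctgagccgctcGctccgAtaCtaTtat
ETV5: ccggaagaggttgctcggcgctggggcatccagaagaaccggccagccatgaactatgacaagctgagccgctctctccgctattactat
ETV6: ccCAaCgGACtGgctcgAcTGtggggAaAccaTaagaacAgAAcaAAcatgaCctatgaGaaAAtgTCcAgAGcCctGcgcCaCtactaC
ETV1 differed from ETV5 at 14 bases and ETV4 at 12, which changed the encoded residue in 0 and 1 codons. ETV6 differed at 32 bases and in 13 codons. The stretch spans an exon junction in each gene, exons 12 and 13 of 14 in ETV1, 11 and 12 of 13 in ETV4 and ETV5, and 6 and 7 of 8 in ETV6. Over whole proteins, as translated from those transcripts, ETV1 and ETV5 were 66.67% identical, ETV1 and ETV4 56.6%, and ETV4 and ETV5 54.34%. Identity of these proteins with ETV6 ran from 23.01% to 23.89%. Reads could in principle be split between paralogs, and this was not tested. The longest run of identical bases between any pair of these transcripts was 33, between ETV4 and ETV5, and 13 to 18 in the other pairs.

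In GENCODE 29 on GRCh38, ETV1 lies at chr7:13891228-13991425, ETV4 at chr17:43527844-43579620 and ETV5 at chr3:186046308-186110318, all on the minus strand. ETV6 lies at chr12:11649854-11895402 on the plus strand. ETV4 shares 54 exonic bases with DHX8 on the opposite strand, and ETV5 shares 164 with DGKG on the same strand. The strand setting of the counting was not given in the sources used here, so reads over those shared bases cannot be assigned. DHX8, a splicing helicase, did not pass the test in any of the 4 comparisons with DMSO, with log2 fold changes from -0.40 to 0.20. DGKG, a diacylglycerol kinase, rose in OCI-AML3 by 1.23 at 2 h and 1.298 at 24 h, which is opposite in direction to ETV5 there. In Molm-14 its log2 fold changes were 0.09 and -0.45, neither called, and under DMSO it was lower in OCI-AML3 than in Molm-14, by -1.04 (limma adjusted p = 1.1e-08), the same direction as ETV5.

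Promoter windows from RefSeq (GRCh38.p14) were matched for ETV1, which has 6 annotated starts, and for ETV6, which has 1. No window was matched for ETV4 or ETV5, so their promoters were not searched. The window before the outermost ETV1 start, chr7:13991426-13991675 on the minus strand, is shown because it held a CIC octamer, the short motif bound by the repressor named above. The letters searched on both strands were TGAATGAA, TGAATGGA, TCAATGAA and TCAATGGA for CIC, CCGGAA for the ETS core and TGANTCA for AP-1; no pair of these motifs overlapped here. Capitals mark the matches.
ETV1 promoter: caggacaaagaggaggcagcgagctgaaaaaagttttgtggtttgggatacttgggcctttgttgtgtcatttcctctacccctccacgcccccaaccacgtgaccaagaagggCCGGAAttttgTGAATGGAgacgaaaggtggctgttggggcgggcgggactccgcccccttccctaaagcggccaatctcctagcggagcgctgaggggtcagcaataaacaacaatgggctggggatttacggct
The ETS core stood at -136 and the octamer at -125 from the start. A CIC octamer occurred in 3.184% of 35116 promoter windows of 250 bases, an ETS core in 14.53% and an AP-1 site in 6.573%. Among the other 5 ETV1 windows, 2 held the ETS core, at the same genomic bases, and none held an octamer. The ETV6 window, with a GC content of 74.4%, held no match to the motifs searched. These matches describe letters in a window only.

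Levels are in CPM, read counts scaled to a common library size, obtained from the deposited log2 CPM after removing the small prior count that the log scale carries. Effective library sizes recovered from the values ran from 15.4 to 22.4 M reads, so 1 CPM corresponds to 15.4 to 22.4 reads of a library. Fold changes are differences of mean log2 CPM between groups, fitted with limma over all 13033 genes. A gene is said to rise or fall where its Benjamini-Hochberg adjusted p was below 0.05 and its absolute log2 fold change at least 1. Whether replicate libraries stem from different cultures is not stated, and the p-values then reflect no more than the library-to-library spread, which may be technical.

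The labelled cell type was checked by marker genes. All 12 myeloid markers were measured, with median summed levels of 1300 CPM in Molm-14 and 2478 CPM in OCI-AML3 under DMSO, although MPO (2.83 and 2.57 CPM) and CD14 (0.294 and 3.29 CPM) were low. Of 8 lymphoid markers 2 were in the table, of 7 erythroid and platelet markers 1, and of 8 epithelial and stromal markers 3. Their highest median sums in any group were 34.6 CPM (PAX5 and NKG7), 10.9 CPM (ITGA2B) and 172 CPM (KRT18, COL1A2 and PECAM1). The median sum of the myeloid markers stood at 1252 and 1993 CPM after 2 and 24 h in Molm-14 and at 2506 and 7468 CPM in OCI-AML3, and the 24 h libraries ran from 1938 to 2020 CPM and from 7361 to 7741 CPM. Single markers went different ways. In OCI-AML3 at 24 h LYZ stood at 3792 CPM against 574 under DMSO, while FCGR1A stood at 5.67 against 44.6 and CD14 at 0.216 against 3.29. In Molm-14 at 24 h FCGR1A stood at 33.1 CPM against 73.7 and MPO at 0.604 against 2.83. In both lines at 24 h the mean of every myeloid marker other than MPO, CD14 and FCGR1A lay above its DMSO mean. CSF1R, for example, stood at 88.0 CPM against 6.97 in Molm-14 and at 172 CPM against 13.1 in OCI-AML3. The marker sum moved at 24 h together with the ETV changes described next, and its part in them was not tested. In bulk libraries, fewer cells of a type and less RNA per cell cannot be told apart.

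Under DMSO, ETV6 was the most abundant of the 4 genes per kilobase of exon in both lines. It reached 12.4 CPM per kilobase in Molm-14, against 10.8 for ETV4, 7.11 for ETV5 and 0.256 for ETV1. In OCI-AML3 the same order held, at 19.5, 6.92, 2.64 and 0.0789 CPM per kilobase. ETV1 transcript was thus scarce in both lines, and its values rest on 142 reads over 4 Molm-14 DMSO libraries and 50 over 4 OCI-AML3 ones.

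ETV5 fell in all 4 comparisons with DMSO. In Molm-14 its level was 31.9, 28.3, 30.5 and 32.3 CPM under DMSO, 4.74, 3.94, 4.27 and 3.97 CPM after 2 h, and 8.75, 8.17, 11.0 and 8.04 CPM after 24 h. The 3 Molm-14 groups did not overlap, and the 24 h libraries lay between the other two groups. The log2 fold change was -2.83 ± 0.15 (SE, n = 4 per group; limma adjusted p = 1.4e-16) at 2 h and -1.77 ± 0.15 (adjusted p = 3.0e-12) at 24 h. In OCI-AML3 the level was 11.1, 12.3, 11.1 and 11.3 CPM under DMSO, 1.504, 1.91, 1.49 and 1.79 CPM after 2 h, and 0.446, 0.962 and 0.498 CPM after 24 h. Here the 24 h libraries were the lowest, again with no overlap between groups. The log2 fold changes were -2.71 ± 0.15 (limma adjusted p = 6.0e-16) and -4.03 ± 0.16 (adjusted p = 2.0e-20), the second with n = 3 against 4. In reads, 35 against 922 gave a level 17.9-fold lower at 24 h (exact 95% interval of the read ratio, counting error only, 12.8 to 25.9).

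ETV4 fell in 3 of the 4 comparisons and was lower at 24 h than at 2 h in both lines. Its level in Molm-14 was 32.5, 31.1, 28.9 and 29.04 CPM under DMSO, 15.4, 14.4, 13.2 and 12.8 CPM after 2 h, and 3.23, 5.08, 5.04 and 4.81 CPM after 24 h. Each step was downward with no overlap, and replicate 1 at 24 h was the lowest of all. ETV4 fell by 1.12 ± 0.23 on the log2 scale at 2 h (limma adjusted p = 2.8e-04, n = 4 per group) and by 2.74 ± 0.23 at 24 h (adjusted p = 5.2e-10). In OCI-AML3 the level was 21.4, 18.6, 20.2 and 17.4 CPM under DMSO, 9.75, 9.32, 9.78 and 12.4 CPM after 2 h, and 0.223, 0.0534 and 0.442 CPM after 24 h. All 2 h libraries lay below all DMSO libraries, but the log2 fold change of -0.91 ± 0.23 (limma adjusted p = 0.0019) did not reach the fold threshold. Without replicate 4 at 2 h, the highest of that group, it was -1.002 and passed. At 24 h only 13 reads remained in 3 libraries, against 1568 in the 4 DMSO libraries, a level 82.1-fold lower (exact 95% interval 47.8 to 154). Replicate 4 held 8 of the 13 reads, and without it the level was 143-fold lower (61.1 to 441). The fitted log2 fold change was -5.996 ± 0.25 (limma adjusted p = 1.1e-15), and 3 of the 13033 genes had a lower one in that comparison.

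ETV1, the least abundant member, fell at 2 h in both lines. In Molm-14 it stood at 2.07, 1.497, 2.64 and 1.67 CPM under DMSO, at 0.273, 0.274, 0.324 and 0.402 CPM after 2 h, and at 1.87, 1.496, 1.90 and 1.33 CPM after 24 h. The 24 h libraries overlapped the DMSO libraries, while all 2 h libraries lay far below both. The log2 fold change was -2.27 ± 0.30 at 2 h (limma adjusted p = 1.1e-07, n = 4 per group) and -0.23 ± 0.30 at 24 h (adjusted p = 0.50, 95% interval -0.83 to 0.38). With 1 CPM added before taking logs the 2 h value was -1.16 and still called. In OCI-AML3 it stood at 0.511, 0.601, 0.848 and 0.474 CPM under DMSO, at 0.334, 0.272, 0.205 and 0.0542 CPM after 2 h, and at 0.0557, 0.214 and 0.276 CPM after 24 h. These values come from 1 to 19 reads per library, and the 2 h and 24 h libraries overlapped. The log2 fold changes were -1.22 ± 0.30 (limma adjusted p = 7.6e-04) and -1.38 ± 0.32 (adjusted p = 2.6e-04). The 2 h call was lost without replicate 4 of that group (-0.91), and adding 1 CPM before taking logs ended both calls (-0.40 and -0.44), since that compresses a gene of this level. By reads, ETV1 in OCI-AML3 was 2.88-fold lower at 2 h (exact 95% interval 1.62 to 5.42) and 3.40-fold lower at 24 h (1.71 to 7.52).

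ETV6 passed the test in none of the 4 comparisons with DMSO. In Molm-14 it was at 72.0, 75.8, 73.7 and 76.5 CPM under DMSO, 38.9, 43.5, 39.1 and 41.3 CPM after 2 h, and 86.5, 83.2, 86.7 and 83.0 CPM after 24 h. The 2 h libraries were all below the DMSO libraries and the 24 h libraries all above them. The log2 fold change was -0.87 ± 0.05 at 2 h (limma adjusted p = 1.5e-16), short of the fold threshold, and 0.19 ± 0.05 at 24 h (adjusted p = 4.5e-04). In OCI-AML3 it was at 112, 122, 110 and 123 CPM under DMSO, 119, 114, 117 and 118 CPM after 2 h, and 79.9, 87.4 and 82.8 CPM after 24 h. The 2 h libraries fell within the DMSO range, with a log2 difference of 0.00 ± 0.05 (limma adjusted p = 0.98, 95% interval -0.09 to 0.09). At 24 h all 3 libraries were below all DMSO libraries, by -0.49 ± 0.05 (adjusted p = 1.6e-10), again short of the threshold.

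**Figure D1:**
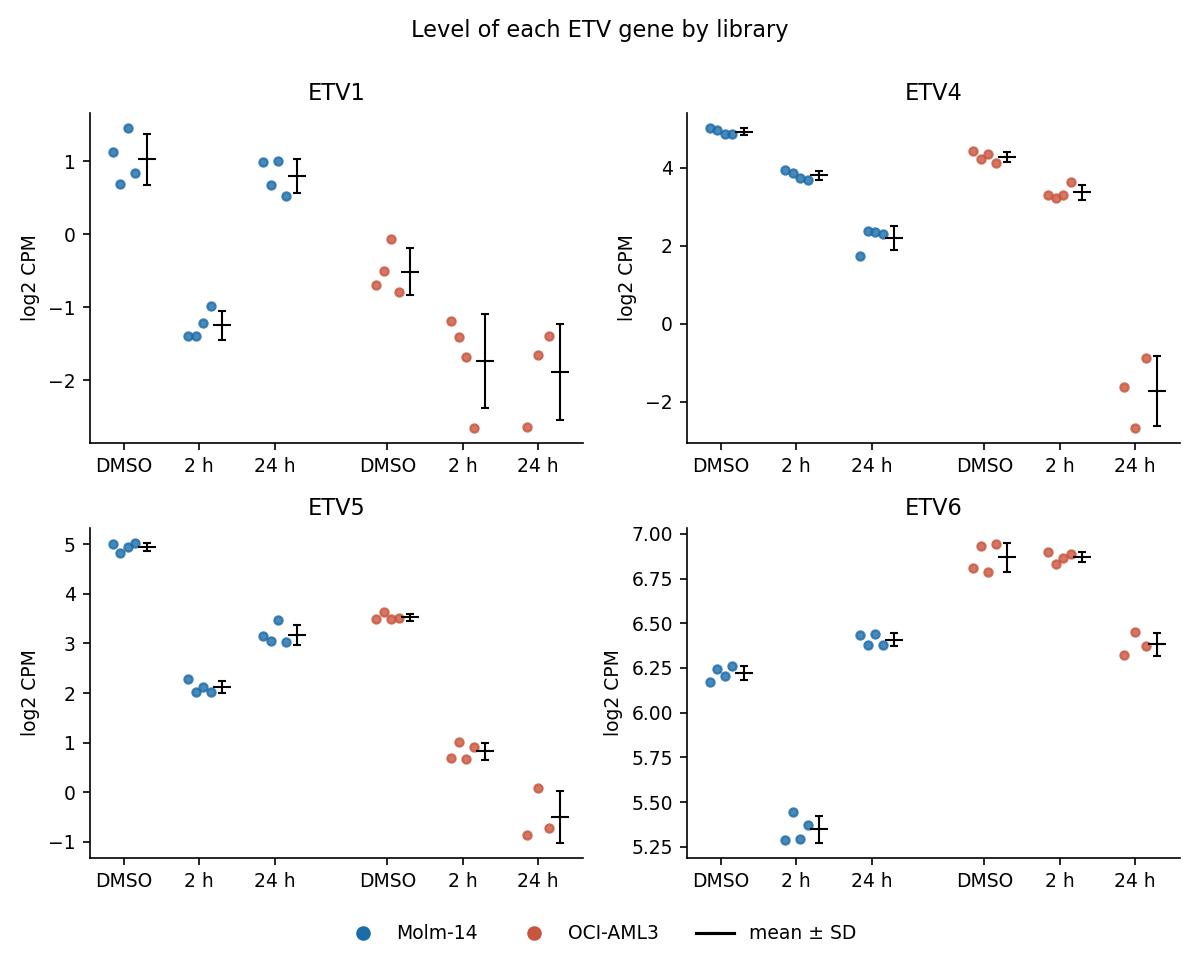
Deposited log2 CPM of ETV1, ETV4, ETV5 and ETV6 in each of 23 libraries (points), by line and treatment, with the mean ± SD of each group beside them; each panel has its own axis. ETV4 and ETV5 have 6 groups that do not overlap, while ETV1 in Molm-14 at 24 h overlaps its DMSO libraries and ETV6 spans a far narrower range.

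Read against all genes, the PEA3 calls were as follows. In Molm-14 at 2 h, 3 of 3 PEA3 genes fell, where 2.98% of all genes did and 7.29% were called in either direction. At 24 h in Molm-14, 2 of 3 fell, against 6.57% of genes lower and 17.9% called. In OCI-AML3 at 2 h, 2 of 3 fell, against 3.35% lower and 6.58% called. At 24 h in OCI-AML3, 3 of 3 fell, in a comparison where 17.1% of genes fell and 35.4% were called. Both OCI-AML3 counts include ETV1, which has few reads there and lost both calls with 1 CPM added before taking logs. ETV6 was called in none of these 4 comparisons. For ETV5, 18, 80, 21 and 45 genes showed a lower log2 fold change in the 4 comparisons in that order. For ETV4 the corresponding numbers were 298, 19, 554 and 3, and for ETV1 they were 36, 4711, 261 and 1420.

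**Figure D2:**
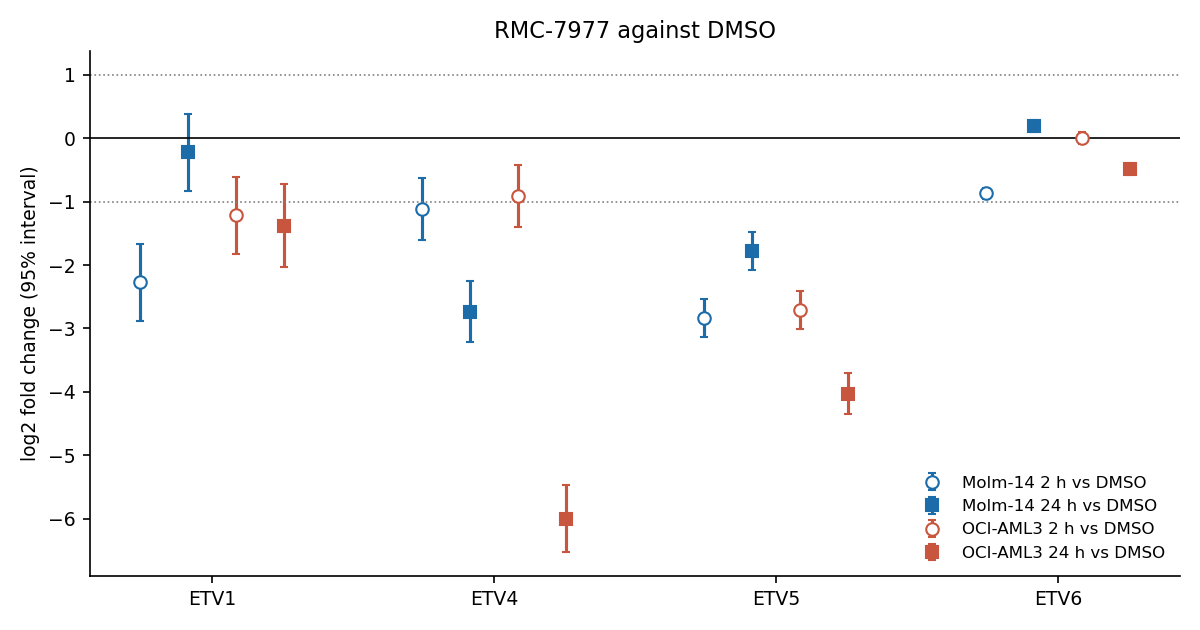
Log2 fold change of each gene (RMC-7977 against DMSO, limma) with its 95% interval; open circles are 2 h and filled squares 24 h, and dotted lines mark the fold threshold of 1. ETV4 is further below 0 at 24 h than at 2 h in both lines, ETV5 only in OCI-AML3, and all ETV6 points lie between -0.87 and 0.19.

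From 2 to 24 h the members went different ways in Molm-14, and these comparisons do not involve the DMSO libraries. ETV1 rose by 2.05 ± 0.30 on the log2 scale (limma adjusted p = 4.8e-07), ETV5 by 1.06 ± 0.15 (adjusted p = 1.9e-07) and ETV6 by 1.06 ± 0.05 (adjusted p = 7.5e-19), while ETV4 fell by 1.62 ± 0.23 (adjusted p = 2.5e-06). All 4 were thus called, against 10.6% of all genes (7.25% higher, 3.38% lower). The ETV5 call sits at the threshold, since its log2 fold change was 0.96 without replicate 3 at 24 h and 0.93 after adding 1 CPM before taking logs. The same addition left ETV1 at 1.002. In OCI-AML3 none of the members rose between the times: ETV4 fell by 5.08 ± 0.25 (adjusted p = 3.9e-14) and ETV5 by 1.32 ± 0.16 (adjusted p = 9.3e-09), against 22.6% of genes called (11.6% higher, 10.9% lower). With 1 CPM added, ETV4 was at -3.19 and ETV5, at -0.72, was no longer called. ETV1 had a log2 fold change of -0.16 ± 0.32 (adjusted p = 0.66) and ETV6 of -0.49 ± 0.05 (adjusted p = 2.2e-10). In share of the DMSO mean, ETV5 in Molm-14 went from 13.8% at 2 h to 29.2% at 24 h and ETV4 from 45.9% to 14.9%. In OCI-AML3 ETV5 went from 14.6% to 5.55% and ETV4 from 53.1% to 1.23%.

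The difference between the lines was tested as an interaction, OCI-AML3 minus Molm-14. At 2 h it was 0.13 ± 0.21 for ETV5 (limma adjusted p = 0.66, 95% interval -0.30 to 0.55) and 0.21 ± 0.33 for ETV4 (adjusted p = 0.65, 95% interval -0.48 to 0.89). ETV6 differed by 0.87 ± 0.06 (adjusted p = 2.5e-12), being lower at 2 h in Molm-14 alone, but below the fold threshold. ETV1 differed by 1.05 ± 0.42 (adjusted p = 0.048), the only 1 of 4 called at 2 h, where 5.64% of genes were. That call was fragile: it was lost in 12 of the 16 fits that left out a library of the 4 groups, with estimates from 0.87 to 1.12, and with voom (0.98, adjusted p = 0.16). At 24 h the response was more negative in OCI-AML3 for every PEA3 gene, by -3.26 ± 0.34 for ETV4 (adjusted p = 3.6e-08), by -2.25 ± 0.22 for ETV5 (adjusted p = 2.1e-10) and by -1.15 ± 0.44 for ETV1 (adjusted p = 0.022), against 17.8% of genes called and 9.75% in that direction. The ETV1 difference no longer passed without DMSO replicate 3 (-1.005) or 24 h replicate 1 (-0.78) of OCI-AML3. With 1 CPM added the differences were -1.53 for ETV4 and -1.26 for ETV5, both still called, and -0.29 for ETV1, which was no longer called. ETV6 differed by -0.67 ± 0.07 (adjusted p = 4.1e-10), below the threshold.

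Before treatment the lines already differed. Under DMSO ETV5 was lower in OCI-AML3 by -1.42 ± 0.15 (log2; limma adjusted p = 3.3e-10) and ETV1 by -1.54 ± 0.30 (adjusted p = 2.6e-05), and both were called, as were 30.2% of all genes. The ETV1 call was lost after adding 1 CPM before taking logs (-0.88). ETV4 was lower by -0.65 ± 0.23 (adjusted p = 0.015) and ETV6 higher by 0.65 ± 0.05 (adjusted p = 4.1e-14), neither reaching the fold threshold. Ordered by mean level, ETV4 ran from Molm-14 DMSO through OCI-AML3 DMSO, Molm-14 2 h, OCI-AML3 2 h and Molm-14 24 h to OCI-AML3 24 h. ETV5 had Molm-14 24 h above Molm-14 2 h and OCI-AML3 2 h, and otherwise the same start and end. No neighbouring groups overlapped in either order. For ETV1, Molm-14 DMSO and 24 h overlapped, as did Molm-14 2 h with OCI-AML3 2 h, and OCI-AML3 2 h with 24 h. For ETV6 the order was OCI-AML3 2 h, OCI-AML3 DMSO, Molm-14 24 h, OCI-AML3 24 h, Molm-14 DMSO and Molm-14 2 h, with overlap between the first pair and between both 24 h groups.

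The ratio of each PEA3 gene to ETV6 within a library is not altered by a factor that scales the whole library, apart from the small prior count. Under DMSO, log2 CPM of ETV5 minus that of ETV6 was -1.27 ± 0.10 (SD, n = 4) in Molm-14 and -3.34 ± 0.07 (n = 4) in OCI-AML3. In Molm-14 this difference was -3.24 ± 0.19 after 2 h and -3.24 ± 0.18 after 24 h, a shift of -1.96 at both times, because ETV5 and ETV6 both rose by 1.06 in between. ETV4 relative to ETV6 shifted by -0.25 at 2 h, with overlapping libraries (exact two-sided permutation p = 0.086, Benjamini-Hochberg adjusted 0.094), and by -2.92 at 24 h. In OCI-AML3 the shifts were -0.91 and -5.51 for ETV4, and -2.71 and -3.54 for ETV5. For ETV1 they were -1.40 and -0.41 in Molm-14 and -1.22 and -0.89 in OCI-AML3. Of 12 such exact permutation tests, 10 gave p = 0.029 (adjusted 0.034), the smallest p that 4 against 4 or 3 against 4 libraries allow; the exceptions were ETV4 at 2 h and ETV1 at 24 h (p = 0.11), both in Molm-14. Adding 1 CPM before taking logs gave ETV1 shifts of -0.30 in Molm-14 at 2 h (exact permutation p = 0.086, no longer past the threshold), of -0.40 at 2 h and 0.039 at 24 h in OCI-AML3, and an ETV4 shift of -3.57 in OCI-AML3 at 24 h. Without replicate 1 at 24 h the ETV1 shift in OCI-AML3 was -0.55.

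**Figure D3:**
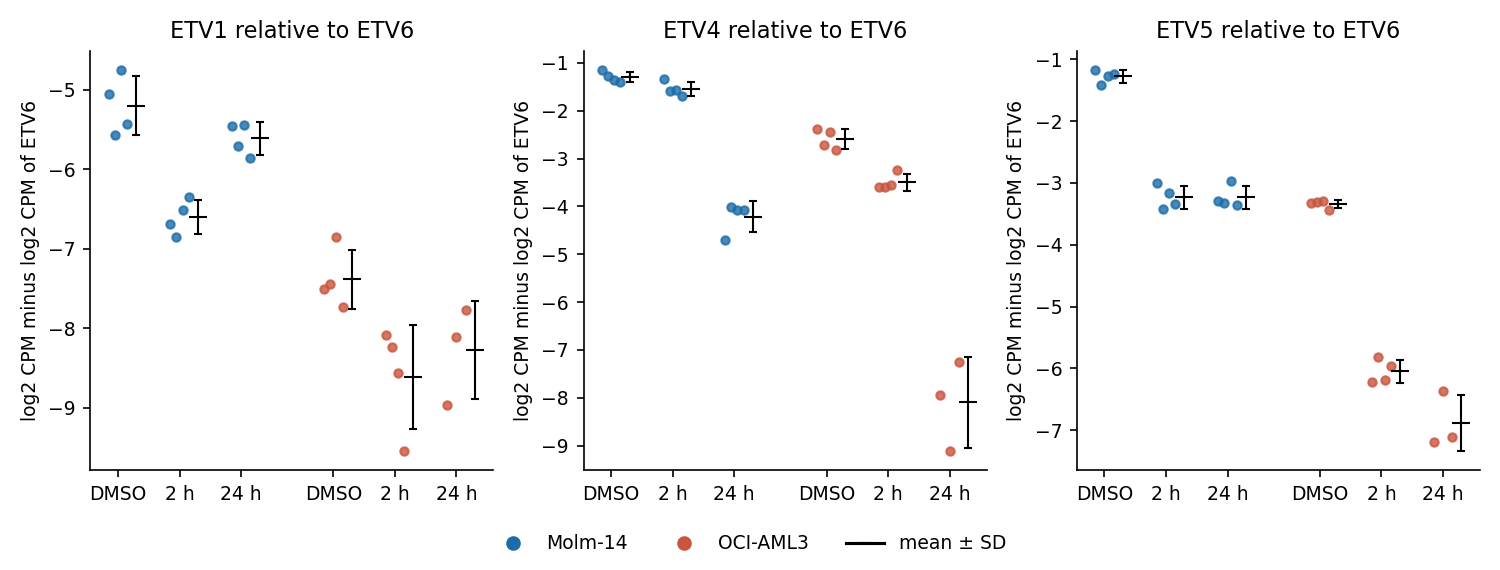
Log2 CPM of ETV1, ETV4 and ETV5 minus log2 CPM of ETV6 in the same library (points), with mean ± SD per group. ETV5 relative to ETV6 is the same at 2 and 24 h in Molm-14, whereas ETV4 relative to ETV6 drops at 24 h in both lines.

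Of 24 other human ETS genes listed, 15 were in the table, from the ETS, ERG, ELF, ternary complex factor, GABP, ERF and SPI subgroups. In 3 of the 4 comparisons with DMSO none of the 15 fell, and in OCI-AML3 at 24 h 1 did. Of all genes, 2.98% and 6.57% fell in Molm-14 at 2 and 24 h, and 3.35% and 17.1% in OCI-AML3. Among the 15, 1 rose in Molm-14 at 2 h, 1 in Molm-14 at 24 h, 2 in OCI-AML3 at 2 h and 1 in OCI-AML3 at 24 h. The shares of all genes that rose were 4.3%, 11.4%, 3.23% and 18.4%. The median log2 fold changes of the list, over genes with reads, were 0.12, 0.14, 0.08 and 0.05, beside 0.00, 0.00, 0.02 and 0.01 over all genes. SPIB, a lymphoid relative of the myeloid regulator PU.1, rose in Molm-14 from 31.4 ± 2.62 CPM (SD, n = 4) to 314 ± 13.7 CPM at 2 h (log2 fold change 3.32, limma adjusted p = 2.4e-23). It was back at 40.0 ± 0.97 CPM at 24 h, and in OCI-AML3 it rose by 1.13 at 2 h from 3.11 CPM. ETS2, itself a target of ERK phosphorylation, rose in OCI-AML3 by 1.07 at 2 h and by 1.285 at 24 h, from 196 ± 5.2 CPM to 477 ± 7.8 CPM (n = 3). ELF2 rose in Molm-14 at 24 h by 1.07. ELF4 had log2 fold changes of 0.76, 0.53, 0.46 and 0.98, none past the threshold. ERG fell by 1.284 in OCI-AML3 at 24 h. It was listed at 0 in all Molm-14 libraries, so no fold was computed there.

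**Figure D4:**
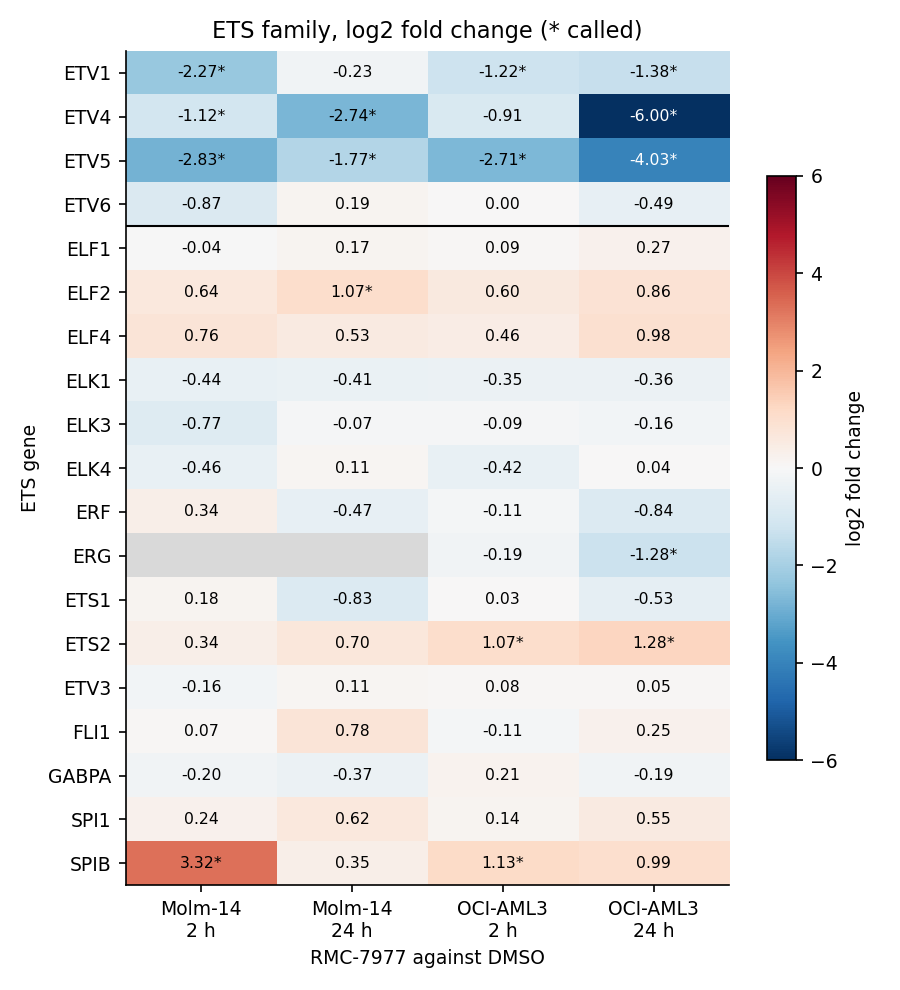
Log2 fold change (RMC-7977 against DMSO) of the 4 ETV genes, above the line, and of 15 other ETS genes, below it; the colour scale runs from -6 to 6, an asterisk marks a called gene, and grey marks ERG in Molm-14, which was listed at 0. The darkest cells are ETV4 and ETV5 in OCI-AML3 at 24 h, and SPIB in Molm-14 at 2 h is the deepest red.

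All 8 listed regulators of the PEA3 genes and proteins were measured. In Molm-14 1 of 8 rose at 2 h and 1 at 24 h, against 4.3% and 11.4% of all genes. None fell there, against 2.98% and 6.57%. In OCI-AML3 none was called at 2 h, against 6.58% of all genes. At 24 h 1 of 8 rose there and 1 fell, against 18.4% and 17.1%. CIC, the repressor itself, rose in Molm-14 at 2 h from 85.0 ± 7.5 to 199 ± 23 CPM (n = 4 each; log2 fold change 1.22, limma adjusted p = 1.0e-13) and had log2 fold changes of 0.32, 0.15 and 0.45 in the other 3 comparisons. Its partner ATXN1, ataxin 1, was called at 24 h only, by 1.47 in Molm-14 (to 67.3 ± 3.8 CPM) and 1.33 in OCI-AML3 (to 52.1 ± 4.9 CPM, n = 3). COP1, DET1, DDB1, CUL4A and RBX1 build the ubiquitin ligase that removes PEA3 proteins. Of these RBX1 fell, by 1.21 in OCI-AML3 at 24 h, and CUL4A was not called, with values from -0.56 to 0.29. COP1, its substrate receptor, had log2 fold changes between -0.10 and 0.11. Transcript levels say nothing of the amount or phosphorylation of these proteins, which were not measured.

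Of 19 other genes known to follow ERK activity or CIC, 14 were measured. At 2 h 13 of 14 fell in Molm-14 and 12 of 14 in OCI-AML3, where 2.98% and 3.35% of all genes did, with list medians of -2.49 and -2.52. At 24 h 5 of 14 fell in Molm-14 (median -0.49) against 6.57% of all genes. In OCI-AML3 12 of 14 fell (median -2.49) against 17.1%, and 1 rose against 18.4%. Between 2 and 24 h, 10 of 14 rose in Molm-14 and none fell, against 7.25% of all genes higher and 3.38% lower. In OCI-AML3 3 rose and 1 fell, against 11.6% higher and 10.9% lower. SPRY4 and SPRY2, feedback inhibitors of the pathway, fell in Molm-14 at 2 h, with log2 fold changes of -5.34 and -2.55, and at 24 h stood at -3.10 and -0.71, the second not called. In OCI-AML3 SPRY4 had -5.70 and -4.62 at 2 and 24 h, and SPRY2 -2.06 and -2.29, all called. CCND1, which encodes cyclin D1, fell at both times in both lines, with log2 fold changes of -3.42 and -1.79 in Molm-14 and of -4.85 and -6.96 in OCI-AML3. EGR1, an immediate early factor, fell at both times in both lines, with log2 fold changes of -5.37 and -5.72 in Molm-14. In OCI-AML3 it stood at 3.26 CPM at 2 h and 1.76 CPM at 24 h, against 41.1 CPM under DMSO. ETV5 in Molm-14 thus had a value nearer 0 at 24 h, as did most of this list, and ETV4 did not; no test was made of ETV4 against the list. This list was drawn up with results of these libraries known and is not independent evidence of its direction.

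**Figure D5:**
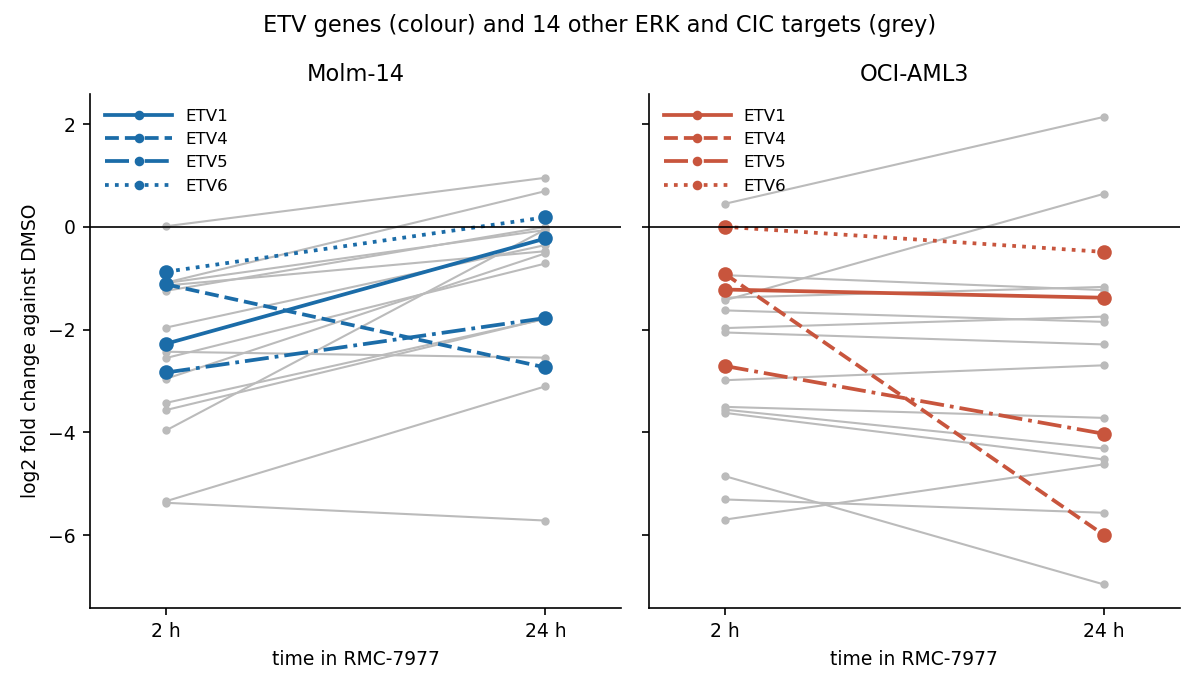
Log2 fold change against DMSO at 2 and 24 h for the 4 ETV genes (coloured, by line style) and 14 other ERK and CIC targets (grey), with a line joining the values of a gene; both times share the DMSO libraries. In Molm-14 the ETV4 line runs downward to -2.74 while ETV1, ETV5 and most grey lines run upward, and in OCI-AML3 the ETV4 line ends at -5.996.

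Of 7 measured co-repressors that work with ETV6, L3MBTL1 was the gene that rose. Its log2 fold changes at 24 h were 2.58 in Molm-14 and 1.796 in OCI-AML3, where 11.4% and 18.4% of all genes rose. The Molm-14 value starts from a low level, 0.315 CPM under DMSO (22 reads over 4 libraries), and ends at 2.29 CPM. In OCI-AML3 the level went from 6.86 to 23.8 CPM. None of the 7 was called at 2 h, where 7.29% and 6.58% of all genes were. SIN3B had log2 fold changes of 0.27 and 0.74 at 24 h, TBL1XR1 of 0.18 and -0.36, and SIN3A of -0.17 and -0.14, in Molm-14 and OCI-AML3 in that order. The list medians ran from 0.07 to 0.21 over the 4 comparisons.

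Of 12 genes named in textbooks as targets of PEA3 factors, mostly from work in epithelial tumours, 11 were measured. In Molm-14 1 rose and none fell at 2 h, where 4.3% of all genes rose and 2.98% fell, and 3 rose and 1 fell at 24 h, against 11.4% and 6.57%. In OCI-AML3 1 rose and 3 fell at 2 h, against 3.23% and 3.35% of all genes. At 24 h 1 rose and 3 fell there, against 18.4% and 17.1%. Medians over genes with reads were 0.05, 0.11, -0.08 and -0.23. TERT, the catalytic subunit of telomerase, went from 115 ± 5.5 CPM under DMSO to 33.3 ± 2.4 CPM at 2 h and 1.29 ± 0.37 CPM (n = 3) at 24 h in OCI-AML3, log2 fold changes of -1.78 and -6.39 (limma adjusted p = 7.7e-15 and 8.7e-29). In Molm-14 it fell by 1.43 at 24 h. MMP2, a gelatinase, rose in Molm-14 by 1.32 at 2 h and 2.74 at 24 h, and in OCI-AML3 had log2 fold changes of -0.06 and -0.03. VIM (vimentin) and CXCR4, a chemokine receptor, rose in Molm-14 at 24 h by 1.46 and 1.49. In OCI-AML3 at 24 h they were higher but short of the fold threshold. VIM stood there at 2911 CPM against 1622 under DMSO, and CXCR4 at 420 CPM against 216.

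Genes whose pattern over the 23 libraries was most like that of a member were found by Pearson's r, after taking each value minus the DMSO mean of its line. The libraries fall into 6 groups and share scaling, so r is a description only. The genes named are not stable. With r taken over group means or within either line alone, most of the 5 nearest genes of each member changed. Among 12015 genes, those nearest to ETV4 were POLD2 (r = 0.99), a subunit of DNA polymerase delta, UNG (0.99), a uracil glycosylase, RCC1 (0.99), PBK (0.99) and HNRNPK (0.99). POLD2 had log2 fold changes of -0.36 and -0.95 at 2 and 24 h in Molm-14 and of -0.34 and -2.31 in OCI-AML3, the same order as ETV4 with smaller sizes. Nearest to ETV5 were RRS1 (0.99), a ribosome assembly factor, TGFBR1 (0.99), NIFK (0.99), TWNK (0.99) and CCDC86 (0.98). RRS1 had -1.80, -1.19, -1.56 and -2.58 in the 4 comparisons. ETV1 was nearest to WAKMAR2 (0.93), TNFAIP3 (0.93), ZNF485 (0.92), SPRED1 (0.91), an inhibitor of RAS activation, and IL1RAP (0.90). ETV6 was nearest to F3 (0.92), which encodes tissue factor, IL12A (0.92), ERBIN (0.91), CHSY1 (0.89) and SLC11A2 (0.88). Within the 4 members, r was 0.75 between ETV1 and ETV5, 0.71 between ETV4 and ETV5, 0.26 between ETV1 and ETV4, and 0.79, 0.22 and 0.55 between ETV6 and ETV1, ETV4 and ETV5.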

How the data were processed

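Poly(A) RNA of 24 libraries was sequenced, and values for 23 were available and used. The authors deposited log2 CPM per gene with a small prior count; the submitters' processing notes name Trimmomatic 0.36, STAR 2.7.8a, RSEM 1.3.3, edgeR 3.24.3, limma 3.38.3 and MultiQC 1.28 with GRCh38 (hg38). The annotation and strand setting were not given in the sources used here. The prior was estimated from the shared lowest value of 0.105 CPM and subtracted to give CPM; reads per gene followed from effective library sizes of 15.4 to 22.4 M reads, and of the values of 20 reads or fewer 74.9% to 82.7% came within 0.05 of a whole number, so no count test was used as the main test. Intervals on reads cover counting error only.

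Group means of all 6 groups were fitted to the log2 values with limma 3.58.1 in R 4.3.3 (trend and robust options, no filter on low values, Benjamini-Hochberg over 13033 genes). The script was checked on simulated data. Ratios to ETV6 were compared with exact permutation tests. The members and gene lists were chosen with earlier results of these data known. Listed genes were named as up to 4 per list by smallest adjusted p over the 4 comparisons with DMSO; ERG, COP1, DHX8 and DGKG, where named, were chosen after their values were seen. The 2 GABPA partners without an ETS domain were left out of the ETS list. A group total of 3 reads was the floor for folds in listed genes. Alternatives tried were library totals, median-of-ratios scaling, a pseudocount of 1 CPM, a mean of at least 1 CPM, limma without trend and robust options, voom on read equivalents, a replicate block, the compared groups alone, and leaving out each library.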

Additional observations from a re-analysis of the deposited data

Results flagged for a closer look

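Within groups of 4 libraries, 20 gene and group combinations were examined for a library far from the other three, and 3 stood out, where chance gives about 1 in 20. ETV4 in Molm-14 at 24 h had its lowest library (replicate 1, 3.23 CPM) separated by 0.880 of the group's range on the log2 scale. ETV4 in OCI-AML3 at 2 h had its highest library (replicate 4, 12.4 CPM) separated by 0.8292 of the range, which decides whether the 2 h change passes the fold threshold. ETV5 in OCI-AML3 under DMSO had its highest library (replicate 2, 12.3 CPM) separated by 0.865 of a narrow range.

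The response to RMC-7977 differed between the lines in 6 of 8 gene and time combinations, by the limma interaction test at adjusted p below 0.05 whatever the fold. The differences, OCI-AML3 minus Molm-14 on the log2 scale, were 1.05 for ETV1 and 0.87 for ETV6 at 2 h, and -1.15 for ETV1, -3.26 for ETV4, -2.25 for ETV5 and -0.67 for ETV6 at 24 h. The 2 for ETV6 were below the fold threshold. With that threshold applied, 5.64% of all genes were called at 2 h and 17.8% at 24 h. The share of all genes at adjusted p alone is not given here, so the count has no like share beside it. The ETV1 differences at 2 and 24 h are both fragile, as described above. Each lost its call without single libraries and with 1 CPM added before taking logs. The differences for ETV1 and ETV6 had opposite signs at 2 and 24 h.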

How the results depend on the processing

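Of 615 alternative values for the members' fold changes, 583 kept their direction and their side of the threshold. With a pseudocount of 1 CPM, calls were lost for ETV1 in OCI-AML3 at 2 h (-0.40) and 24 h (-0.44), for the ETV1 differences between lines at 2 h (0.75), at 24 h (-0.29) and under DMSO (-0.88), and for ETV5 from 2 to 24 h in Molm-14 (0.93) and OCI-AML3 (-0.72). The number of genes called with that pseudocount was 562 against 858 in OCI-AML3 at 2 h and 470 against 735 for the difference at 2 h. The ETV1 difference at 2 h was also lost with voom (0.98).

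Leaving out a library gave ranges of -1.40 to -0.91 for ETV1 and -1.002 to -0.86 for ETV4 in OCI-AML3 at 2 h, -0.026 to 0.027 for ETV6 there, which changed sign without DMSO replicate 1 (-0.018) or 3 (-0.026) or 2 h replicate 1 (-0.0076) or 4 (-0.0040), 0.96 to 1.11 for ETV5 from 2 to 24 h in Molm-14, -0.47 to 0.21 for ETV1 from 2 to 24 h in OCI-AML3, positive without 2 h replicate 1 (0.023) or 24 h replicate 1 (0.21), and 0.87 to 1.36 and -1.40 to -0.78 for the ETV1 differences at 2 and 24 h.

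For ratios to ETV6, a pseudocount of 1 CPM gave -0.30 for ETV1 in Molm-14 at 2 h (exact p = 0.086) and 0.039 in OCI-AML3 at 24 h. Leaving out libraries gave -1.15 to -0.55 for ETV1, -5.94 to -5.00 for ETV4 and -3.80 to -3.39 for ETV5 in OCI-AML3 at 24 h, where fewer libraries cannot reach p below 0.05. It gave -0.54 to -0.26 for ETV1 in Molm-14 at 24 h, -0.32 to -0.20 for ETV4 in Molm-14 at 2 h and -1.39 to -0.91 for ETV1 in OCI-AML3 at 2 h.

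Same-numbered libraries did not deviate together (22 pairs, r from -0.18 to 0.12, 2 above 0.1), so the numbers were not taken as pairs. The block within a line absorbs a difference between lines, so it gave no value for the lines under DMSO. With a replicate block the ETV1 difference at 2 h (1.05, limma adjusted p = 0.059) was lost. For ratios the paired permutation cannot go below p = 0.125 with 4 pairs; its values were -1.40, -1.22 and -0.72 for ETV1 (Molm-14 2 h, OCI-AML3 2 h and 24 h), -2.92, -0.91 and -5.46 for ETV4 (Molm-14 24 h, OCI-AML3 2 h and 24 h) and -1.96, -1.96, -2.71 and -3.53 for ETV5. Library totals moved the median of all genes by 0.17 in OCI-AML3 at 24 h against DMSO and by 0.10 against 2 h, and changed no call or direction of a member. The genes nearest in pattern changed under each other way of taking r, with 0 to 2 of 5 kept. No filter on low values was applied in the main fit, so the alternative without one gave no separate value. The filter at a mean of at least 1 CPM over all libraries removes ETV1, so ETV1 had no value under that alternative. The cause of these changes was not tested. Folds by reads, an alternative chosen after seeing the data, ran without each library from 58.5 to 143 for ETV4 in OCI-AML3 at 24 h. ETV1 in OCI-AML3, with 10 to 50 reads per group, is limited by depth.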
